A study of Mus musculus with 3 samples.

Results

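Genes of voltage-gated calcium channels, voltage-gated sodium channels, HCN channels and TRP channels were described in single cells of mouse pancreatic islets. Members were the rows whose symbols begin with Cacna, Cacnb, Cacng, Scn, Hcn, Trpa, Trpc, Trpm or Trpv followed by the usual digit, and no measured value chose them beyond a minimum of detection. Of 67 such rows among the 32285 rows of the joint table, 48 had a UMI (a unique molecular identifier, 1 per captured transcript) in at least 20 filtered cells of that table and form the set counted below. Of these 48 genes, 47 also have a row in the other table, and Cacna1f does not.

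Islets came, per the series' design text, from 6 adult mice carrying Ngn3-CreERT:R26-CAG-TdTomato. Tamoxifen had been given 10 days before, and the dissociated cells went to 10x 3′ RNA sequencing. The labels name Ngn3-expressing cells as the source and state no sort for the reporter, nor how many mice replicate 1 held. In these animals a tamoxifen-activated Cre recombinase driven from Ngn3, a transcription factor gene of endocrine progenitors, switches on a red reporter. All 3 samples share both alleles and the tamoxifen, with no Cre-negative or untreated sample, so the comparisons are between cell classes of the same islets. Replicate 1 is a table of its own (library 1). Replicates 2 and 3, each from 2 pooled mice, share 1 joint table in which no label tells them apart. Tests thus rest on n = 2 libraries at most.

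Islet endocrine cells are electrically excitable. In beta cells, closure of potassium channels by glucose metabolism depolarises the membrane, voltage-gated calcium channels open, and the calcium that enters triggers insulin release. Voltage-gated sodium channels carry the upstroke of action potentials, HCN channels open on hyperpolarisation, and TRP channels pass cations in response to calcium, lipids, temperature, oxidants or irritants. A voltage-gated calcium channel is built from a pore-forming alpha1 subunit with a beta subunit inside the membrane and an alpha2delta subunit outside it, and a sodium channel from a pore-forming alpha subunit with beta subunits.

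Cell classes were set from hormones and lineage markers, none of them a channel gene. Beta, alpha, delta and PP cells carried insulin, glucagon, somatostatin or pancreatic polypeptide above free-RNA background and no other hormone. Non-endocrine cells carried no hormone and at least 3 markers of 1 lineage, and are called endothelial, myeloid, stromal, lymphoid or Schwann cells after the list that chose them. Library 1 gave 63 alpha, 13 PP, 438 beta and 122 non-endocrine cells, against 554, 186, 6503 and 1511 in the joint table. Only 5 delta cells of library 1 met the rule, against 117 in the joint table. Delta cells are therefore given by their leading hormone, a rule added after the classes were seen, under which somatostatin is at least 2 times the next hormone above background. It gave 51 delta and 488 beta cells in library 1, and 380 and 7379 in the joint table. In a comparison of delta with beta cells, the beta levels are those of the same rule; elsewhere alpha, PP and beta levels are by a lone hormone unless said otherwise.

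Levels are in CPM, the UMIs of the gene over all UMIs of the class other than the 5 hormone transcripts, times 1000000. Log2 differences are on log2(CPM + 5), which understates changes of low genes, with their standard errors (SE) and Benjamini-Hochberg adjusted p from limma over all genes tested, at a threshold of 0.05. A fitted difference against a class with no UMI depends on that added 5 CPM. Levels are of cells and transcripts captured, and in summed UMIs fewer expressing cells and fewer transcripts per cell cannot be told apart. The transcript count is at the 3′ end, so levels are compared between classes for 1 gene and not between genes.

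The promoters of a pair of members, chosen after their values were seen, are printed as an example of each direction. Trpm5 had the largest lower difference from beta cells in alpha, PP and delta cells, and Cacna2d3 was among the genes higher in delta and PP cells, below others in size. The sequences are the 250 bases upstream of each gene start in RefSeq (GRCm38.p6), on the minus strand, from chr7:143094643-143094892 and chr14:29721865-29722114, with CG pairs in capitals.
Trpm5: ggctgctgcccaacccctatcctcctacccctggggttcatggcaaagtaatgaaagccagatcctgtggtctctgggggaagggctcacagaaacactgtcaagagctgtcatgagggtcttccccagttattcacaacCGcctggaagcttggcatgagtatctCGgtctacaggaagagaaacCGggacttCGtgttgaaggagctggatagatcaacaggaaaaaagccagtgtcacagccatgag
Cacna2d3: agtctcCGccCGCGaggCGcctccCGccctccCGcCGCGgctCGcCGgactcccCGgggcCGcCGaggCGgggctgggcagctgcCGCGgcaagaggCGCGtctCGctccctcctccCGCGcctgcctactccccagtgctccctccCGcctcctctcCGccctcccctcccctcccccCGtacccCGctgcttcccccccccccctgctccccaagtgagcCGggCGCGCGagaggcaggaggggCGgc
The Cacna2d3 promoter holds 30 CG pairs at 80% GC, a CpG observed-over-expected ratio of 0.814. The Trpm5 promoter holds 4 CG pairs at 52.8% GC, a ratio of 0.23. Over the 48 promoters found for 35 members, the median ratio was 0.503, against 0.373 over all 32851 promoters of the table. Both strands of each were searched for short motifs, and none matched. The TATA box letters TATAAA are in 12.4% of all promoters of the same length and the Maf half-site letters TGCTGA in 16.1%. The homeodomain core TAATTA is in 4.84% and the forkhead motif TGTTTAC in 3.17%.

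Library 1 held 859 filtered cells of 1146, against 11449 of 13042 in the joint table. The tables share few barcodes, between 0 and 6 for any pair of library 1 and the 3 barcode blocks of the joint table. Median UMIs per cell were 12447 in alpha, 22001 in PP, 38941.5 in beta and 7934 in non-endocrine cells of library 1, against 7038.5, 11682, 19936 and 2821 in the joint table. Secretory and endocrine transcription factor genes fixed as a check (Chga, Chgb, Scg2, Pcsk2, Neurod1, Isl1, Pax6) summed to 10339 to 21523 CPM over alpha, PP, beta and leading-rule delta cells of both tables, against 157 and 987 CPM in non-endocrine cells. Free RNA was higher in the joint table: insulin transcripts in non-endocrine cells were 0.373% of the beta level in library 1 and 5.3% in the joint table. Acinar enzyme genes summed to between 645 and 2044 CPM over the joint-table classes, and in library 1 to between 27.8 and 343 CPM. The part of either in the channel levels was not tested except where a value is given.

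Over the members other than Trpc4ap, cells of the endocrine classes held more different channel genes than pooled non-endocrine cells. Cells with at least 1500 non-hormone UMIs were thinned to that number, and the others were left out. A joint-table cell then held on average 1.80 different members in delta, 1.14 in alpha, 1.04 in PP and 1.63 in lone-hormone beta cells. Pooled non-endocrine cells held 0.485. Library 1 gave 1.55, 1.39, 0.615 and 1.47 in the same order, against 0.373. The pool covers unlike lineages. Joint-table Schwann cells had 1.19, above alpha and PP cells, and stromal cells 1.02, close to PP cells. Endothelial and myeloid cells there had 0.405 and 0.345. Library 1 stromal cells had 0.636, just above its PP cells. Of the 48 genes, 28 passed the expression filter, 5 CPM in at least 2 of the class sums, and 17 rose and 4 fell in endocrine cells (mean of the classes), while 7 did not pass the test. Among all 12381 genes tested, 28.6% were higher and 23.8% lower, 52.4% in either direction. The median log2 difference was 1.03 over the 28 genes and 0.14 over all genes. These counts are a description, because 11 of the 17 reached the filter only with the endocrine sums where they are high. These 11 are Cacna1b, Cacna2d3, Cacng4, Hcn3, Hcn4, Scn3a, Scn3b, Scn8a, Scn9a, Trpm3 and Trpm5. Their differences between endocrine and non-endocrine cells are a description too. Without the filter, 23 of 47 members rose and 5 fell. The share of all genes called in that fit is not given here, so this count is a description too. All 21 called genes had the same direction in both libraries, which calling from a fit of both favours. Under the leading-hormone rule 36.4% of all genes were higher in endocrine cells and 26.2% lower.

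**Figure D1:**
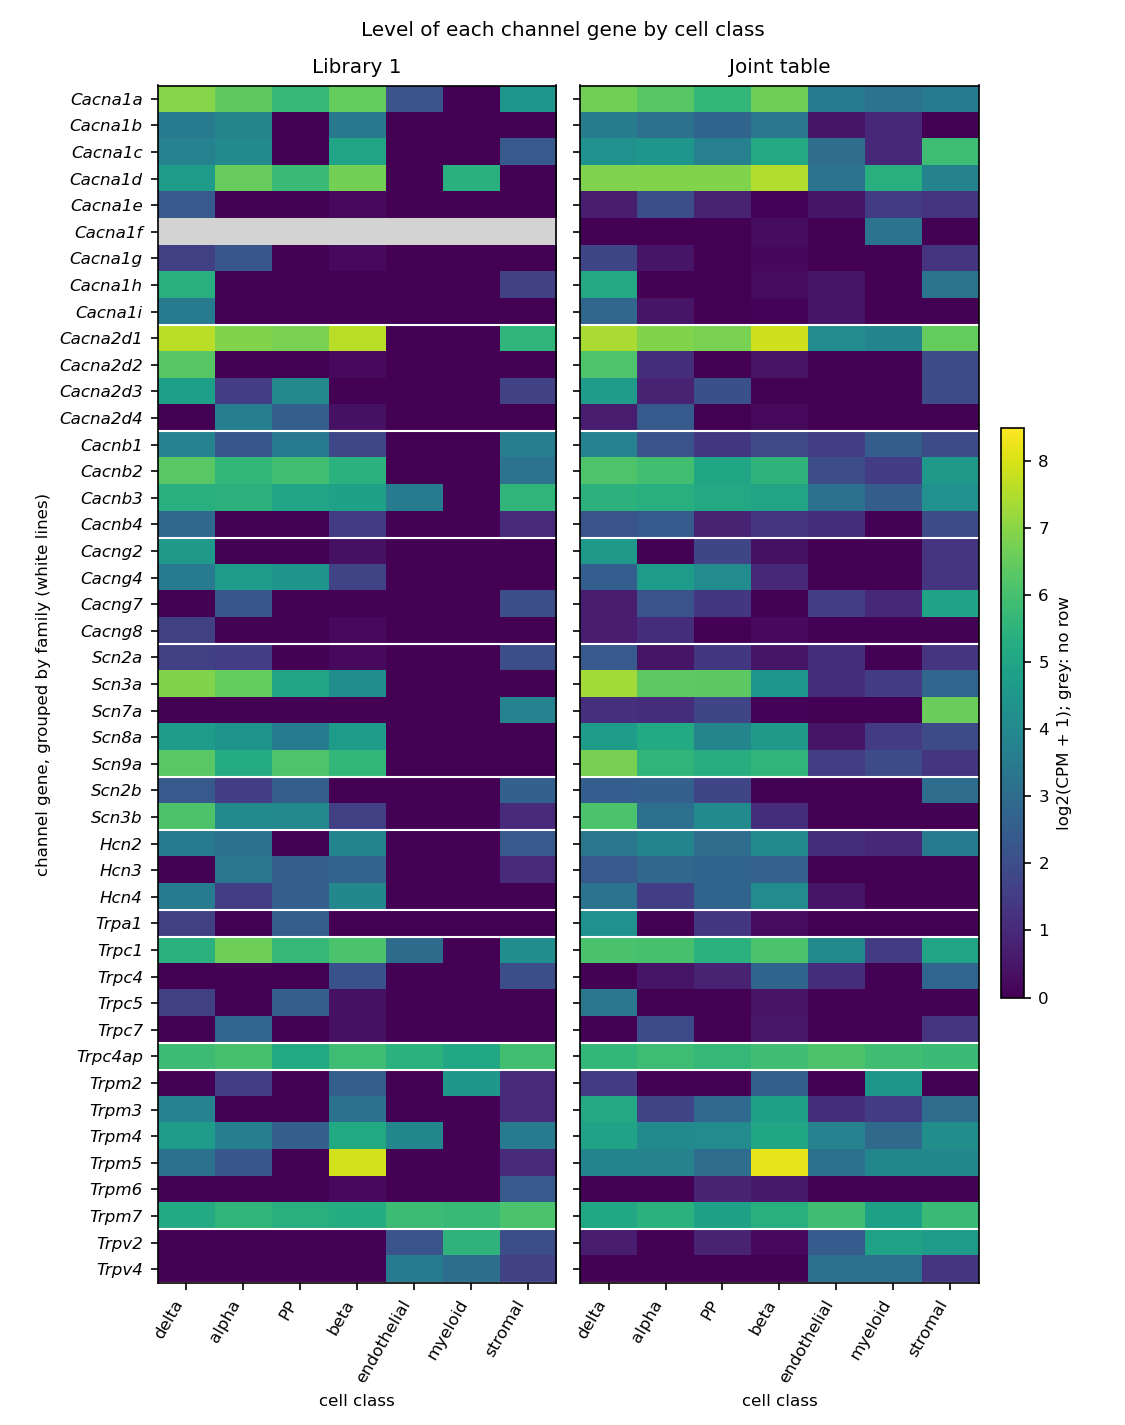
Level of 45 members as log2(CPM + 1), in colour, for 7 cell classes (columns) of library 1 (left) and the joint table (right), with genes grouped by family, delta cells by their leading hormone and the others by a lone one. Trpm5 stands out in beta cells and Cacna2d2 in delta cells of both tables, and Cacna1f has no row in library 1.

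Pore-forming calcium channel subunits were mostly endocrine. Cacna1d, an L-type pore, had 91.0, 54.8 and 103.6 CPM in alpha, PP and beta cells of library 1, against 7.81 CPM in non-endocrine cells. In the joint table it had 118, 118 and 183 CPM in those classes, against 16.7 CPM in non-endocrine cells. Every endocrine class was above the non-endocrine level in both tables (log2 difference 2.81, SE 0.17, adjusted p = 1e-05). Myeloid cells were the exception among the rest, with 40.9 CPM in library 1 and 40.4 CPM in the joint table. Cacna1a, the P/Q-type pore best known at nerve terminals, had 85.2, 49.9 and 89.6 CPM in alpha, PP and beta cells of library 1 and 78.2, 48.9 and 96.6 CPM in the joint table. Its non-endocrine levels were 13.7 and 9.07 CPM, and it rose in endocrine cells (2.38, SE 0.17, adjusted p = 1.94e-05). Cacna1b, the N-type pore, reached the filter only with the endocrine sums and was also called (1.25, SE 0.31, adjusted p = 0.00997). It had 9.71 and 9.07 CPM in beta cells against 0 and 0.633 CPM in non-endocrine cells. In non-endocrine cells of library 1 a count of 3 UMIs would be 1.95 CPM, the limit to set against such zeros. Cacna1c, the L-type pore of heart and smooth muscle, did not pass (0.86, SE 0.34, adjusted p = 0.0646) but was called higher by the leading hormone (1.03, SE 0.23, adjusted p = 0.0038). It had 30.6 and 34.3 CPM in beta cells and 56.5 CPM in joint-table stromal cells, which include pericytes and smooth muscle, but 4.19 CPM in stromal cells of library 1.

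T-type pores, which open at low voltage, had higher levels in delta than in beta cells. Cacna1h had 39.5 and 34.1 CPM in delta cells, against 1.33 and 0.999 CPM in beta cells, and rose (2.75, SE 0.20, adjusted p = 7.11e-05). It reached the filter only with the delta sums and was not tested with a lone hormone, so this difference is a description. The 3 barcode blocks of the joint table gave 25.9, 48.7 and 36.3 CPM in delta cells. No alpha or PP cell classed by a lone hormone held a Cacna1h UMI in either table. By the leading hormone PP cells had 4.52 and 5.38 CPM of it and were called higher than beta cells (0.97, SE 0.20, adjusted p = 0.013), while alpha cells had 3.93 and 3.42 CPM and did not pass (0.55, adjusted p = 0.12). Leading-rule PP cells held somatostatin at 10904 and 13388 CPM and leading-rule alpha cells at 7996 and 9393 CPM. By a lone hormone it was 59.8 and 188 CPM in PP and 110 and 258 CPM in alpha cells. The part of this in their Cacna1h levels was not tested. Cacna1i had 10.4 and 5.98 CPM in delta cells against 0 and 0.315 CPM in beta cells (1.32, SE 0.20, adjusted p = 0.00245). It reached the filter only through the delta sums and was not tested with a lone hormone, so the difference is a description. The third T-type gene, Cacna1g, stayed below the filter, with 2.08 and 2.39 CPM in delta cells against 0.267 and 0.193 CPM in beta cells. Cacna1d went the other way. It fell in delta cells (-1.23, SE 0.27, adjusted p = 0.0153), at 24.9 CPM against 99.5 CPM in beta cells of library 1 and at 114 CPM against 180 CPM in the joint table, so the direction held in both libraries while its size differed.

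Alpha2delta subunits, which bring pores to the membrane, were split by class. Cacna2d1, a binding site of gabapentin, had 195 and 172 CPM in delta cells, against 198 and 229 CPM in beta cells, library 1 before the joint table. Alpha cells had 118 and 118 CPM and PP cells 110 and 110 CPM, against 197 and 234 CPM in beta cells with a lone hormone. Non-endocrine cells had 29.9 and 26.2 CPM (2.17, SE 0.14, adjusted p = 1.38e-05 for endocrine minus non-endocrine). Cacna2d2 had its highest endocrine level in delta cells, at 76.9 CPM in library 1 (exact 95% Poisson interval 54.2 to 106), against 2.93 CPM in beta cells (1.84 to 4.44). In the joint table it had 69.9 CPM in delta cells (57.8 to 83.8), against 2.63 CPM in beta cells (2.22 to 3.08). A UMI of it was found in 47.1% and 22.9% of delta cells, against 2.87% and 1.64% of beta cells, and the intervals of level do not overlap in either table. The difference of 3.32 (SE 0.27, adjusted p = 9.82e-05) was the largest positive one of any member from beta cells. Cacna2d2 did not pass the filter with a lone hormone, so the planned rule gave no test of it. Alpha cells had 0 and 1.18 CPM of it and PP cells 0 and 0 with a lone hormone, while by the leading hormone alpha cells had 4.71 and 6.1 CPM and PP cells 2.26 and 8.61 CPM. Those leading-rule classes also held the somatostatin given above. Cacna2d3, at chr14:28904943-29721864 (mm10), had 27.0 and 24.5 CPM in delta cells against 0.667 and 0.806 CPM in beta cells, and rose (2.41, SE 0.21, adjusted p = 0.000134). Cacna2d4 reached 11.6 and 4.34 CPM in alpha cells, against 0.313 and 0.171 CPM in beta cells, and was not tested under the lone-hormone rule because too few classes passed the filter. By the leading hormone it had 7.07 and 4.17 CPM in alpha and 6.78 and 3.23 CPM in PP cells, against 0.267 and 0.333 CPM in beta cells, and was called higher in both (alpha 1.05, SE 0.23, adjusted p = 0.0141; PP 1.17, SE 0.23, adjusted p = 0.0088). It reached the filter of that rule only through the alpha and PP sums of library 1, so these differences are a description.

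Beta subunits of calcium channels were shared more evenly. Cacnb2 had 48.4, 59.8 and 41.8 CPM in alpha, PP and beta cells of library 1 and 59.2, 31.3 and 45.1 CPM in the joint table, against 5.21 and 5.48 CPM in non-endocrine cells (2.63, SE 0.25, adjusted p = 7.14e-05). Cacnb1 rose in delta cells (1.13, SE 0.29, adjusted p = 0.0291), with 12.5 and 12.6 CPM, against 2.93 and 3.01 CPM in beta cells. The call was lost with hormones in the total (adjusted p = 0.214, within 0.0117 to 0.214 over its alternatives), and the lone-hormone fit gave 0.57 (adjusted p = 0.523). Cacnb3 passed against non-endocrine cells (1.03, SE 0.32, adjusted p = 0.0265), but in library 1 its 28.4 CPM in beta cells stood beside 30.6 CPM in non-endocrine cells, and it lost the call with DESeq2 and with beta cells alone (adjusted p = 0.131 and 0.202, within 0.000144 to 0.202 over its alternatives). Cacnb4 was at 6.24 CPM or below in the delta, alpha, PP and beta cells of both tables.

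Genes named for the gamma subunit mostly encode partners of AMPA-type glutamate receptors, and they marked different islet cells. Cacng4 had 25.2 and 24.1 CPM in alpha cells and 19.9 and 16.04 CPM in PP cells, against 2.35 and 0.92 CPM in beta cells. It rose in both (alpha 2.24, SE 0.27, adjusted p = 0.00179; PP 2.15, SE 0.27, adjusted p = 0.00311). Cacng2, which encodes stargazin, rose in delta cells instead (2.22, SE 0.19, adjusted p = 0.000143), with 22.9 and 23.3 CPM, against 1.33 and 0.701 CPM in beta cells. It reached the filter only through the delta sums and was not tested with a lone hormone, so this difference is a description too. No alpha cell with a lone hormone held a Cacng2 UMI, and by the leading hormone alpha cells had 3.14 and 1.79 CPM (0.36, adjusted p = 0.289). Cacng7 was at most 5.48 CPM in the endocrine classes and in pooled non-endocrine cells, with 28.9 CPM in joint-table stromal cells and 3.14 CPM in those of library 1.

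**Figure D2:**
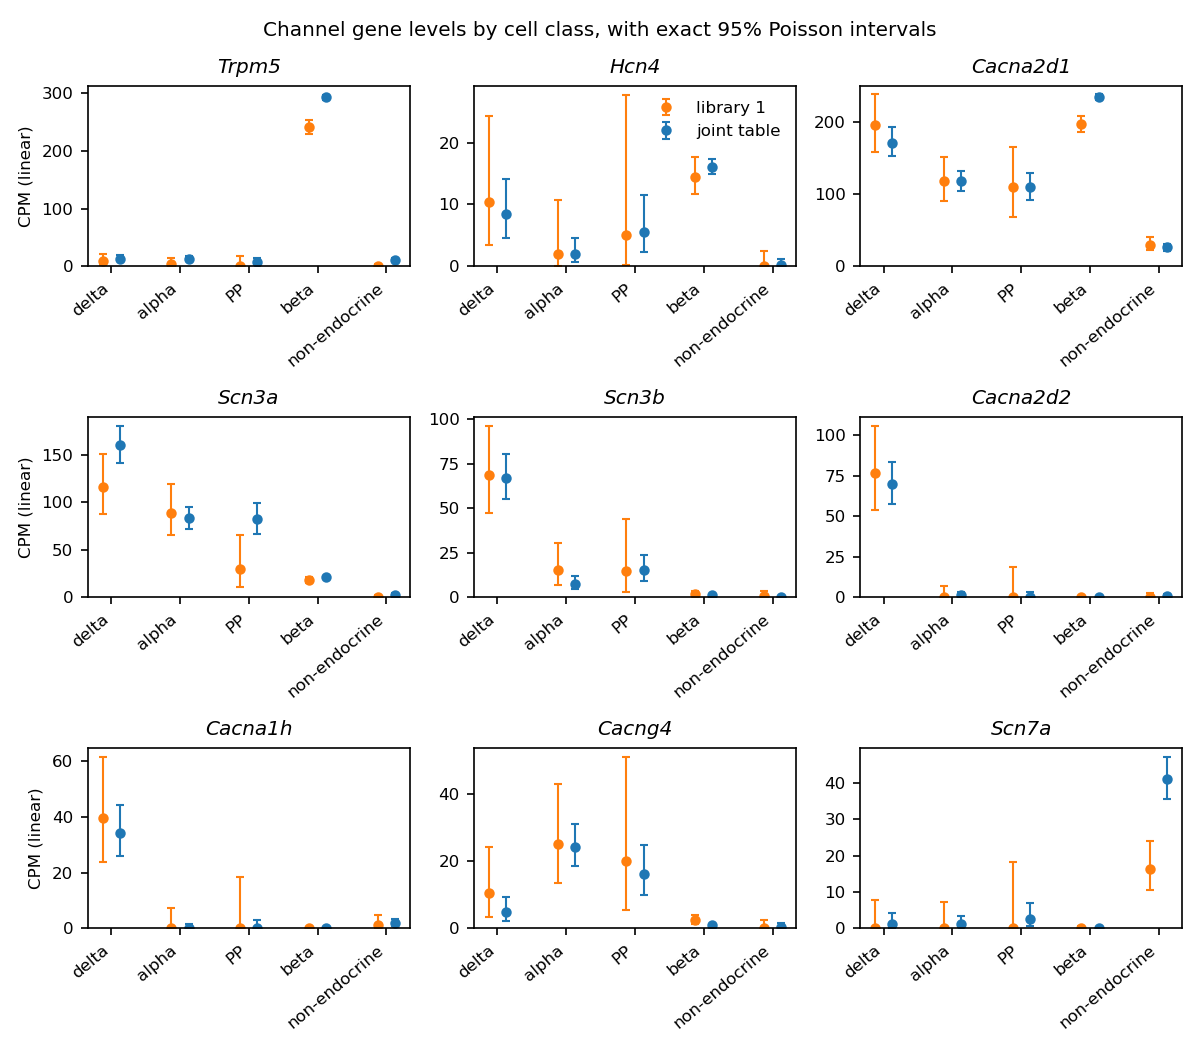
CPM (linear axis from 0) of 9 members in delta (leading hormone), alpha, PP, beta (lone hormone) and non-endocrine cells, in library 1 (orange) and the joint table (blue), with exact 95% Poisson intervals that cover counting error only. Trpm5 and Hcn4 peak in beta cells, Cacna2d2 and Cacna1h in delta cells, Cacng4 in alpha and PP cells, and Scn7a in non-endocrine cells.

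Scn9a and Scn3a, which encode sodium channel pores, had the largest endocrine differences of the 28 members tested. Both, like Scn8a, reached the filter only with the endocrine sums, so these endocrine differences are a description. Scn9a had 36.8, 69.8 and 48.7 CPM in alpha, PP and beta cells of library 1 and 45.8, 38.5 and 46.1 CPM in the joint table. Non-endocrine cells had 0 and 1.9 CPM (3.46, SE 0.27, adjusted p = 2.57e-05), and so the groups do not overlap. Scn3a, an isoform prominent in the embryonic brain, had a like endocrine difference (3.42, SE 0.28, adjusted p = 3.33e-05) and also separated the endocrine classes. It had 116 and 160 CPM in delta cells, against 23.2 and 28.4 CPM in beta cells. Alpha cells had 89.1 and 82.9 CPM and PP cells 29.9 and 81.8 CPM, against 18.0 and 20.9 CPM in beta cells with a lone hormone. It rose in delta cells (2.20, SE 0.17, adjusted p = 7.9e-05), in alpha cells (1.97, SE 0.34, adjusted p = 0.00878) and in PP cells (1.52, SE 0.34, adjusted p = 0.0279). The PP call was lost without centring, at an added 1 CPM and with no filter (adjusted p from 0.000283 to 0.0771 over its alternatives). Scn9a rose in delta cells by less (0.82, SE 0.20, adjusted p = 0.0213), with 79.0 and 108 CPM, against 51.3 and 48.7 CPM in beta cells. That call was lost at an added 1 CPM (adjusted p = 0.168, within 0.00422 to 0.168 over its alternatives), and the lone-hormone fit gave 0.79 (adjusted p = 0.326). Scn8a, the pore of mature nodes of Ranvier, had 19.4, 9.97 and 24.1 CPM in alpha, PP and beta cells of library 1 and 35.9, 13.6 and 23.0 CPM in the joint table, against 0 and 1.27 CPM in non-endocrine cells (2.33, SE 0.24, adjusted p = 0.000116).

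Scn7a encodes the sodium-sensing channel Nax of glia and fell in endocrine cells (-2.50, SE 0.24, adjusted p = 7.38e-05). In alpha, PP, beta and delta cells it had no UMI in library 1 and at most 2.41 CPM in the other table, against 16.3 and 41.1 CPM in non-endocrine cells. Schwann cells carried most of it. In all, 36 of the 41 joint-table Schwann cells held 131 of the 195 non-endocrine UMIs, a level of 1684 CPM (1408 to 1999). Stromal cells held the other 64 UMIs, at 92.7 CPM, and 775 endothelial cells held none. Both Schwann cells of library 1 held the transcript, and 12 of its 25 non-endocrine UMIs lay in 1 cell. Scn7a is a neighbour of Scn3a and Scn9a: on chromosome 2 of mm10, Scn3a (65457118 to 65567627), Scn2a, Scn1a, Scn9a (66480080 to 66634962) and Scn7a (66673425 to 66784914) lie in a row. Scn2a was at most 4.18 CPM in the delta, alpha, PP, beta and pooled non-endocrine cells of both tables, and Scn1a was below the detection minimum.

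Among sodium channel beta subunits, Scn3b rose in delta cells (3.03, SE 0.25, adjusted p = 9.82e-05), with 68.6 and 66.9 CPM, against 4.13 and 3.58 CPM in beta cells. The joint-table blocks gave 51.8, 70.7 and 94.3 CPM in delta cells. It also rose in PP cells (1.96, SE 0.29, adjusted p = 0.00663), at 15.0 and 15.2 CPM against 2.04 and 1.16 CPM in beta cells, and in alpha cells (1.35, SE 0.29, adjusted p = 0.0232), at 15.5 and 7.5 CPM. The 15.0 CPM in PP cells of library 1 is the level of 3 UMIs. Scn2b was at most 5.24 CPM in any endocrine class and in stromal cells of library 1, and 7.24 CPM in joint-table stromal cells.

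HCN genes were low, and Hcn3 and Hcn4 reached the filter only with the endocrine sums. Hcn4, the pacemaker isoform of the sinoatrial node, had 14.4 and 16.1 CPM in beta cells, against 0 and 0.211 CPM in non-endocrine cells, and rose in endocrine cells (1.28, SE 0.19, adjusted p = 0.000899). It fell in alpha relative to beta cells (-1.47, SE 0.24, adjusted p = 0.00651), at 1.94 and 1.97 CPM. Hcn3 passed against non-endocrine cells (1.04, SE 0.20, adjusted p = 0.00352), and Hcn2 did not, although its beta levels of 13.3 and 15.8 CPM stood beside 5.21 and 3.37 CPM in non-endocrine cells. Hcn2 was called higher in endocrine cells by the leading hormone (0.90, SE 0.20, adjusted p = 0.00341).

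Trpm5, a calcium-activated monovalent cation channel also used in taste cells (chr7:143069153-143094642, mm10), was a beta cell gene. Alpha cells had 3.87 CPM of it in library 1 and 13.0 CPM in the joint table, PP cells 0 and 7.22 CPM and delta cells 8.32 and 13.2 CPM. Beta cells had 240.5 CPM (229 to 253) in library 1 by the lone-hormone rule and 293 CPM (288 to 298) in the joint table, and 227 and 271 CPM by the leading hormone. No other class overlapped beta cells, and the joint-table blocks gave 288, 309 and 287 CPM in beta cells. It fell in alpha (-4.35, SE 0.33, adjusted p = 0.00039), PP (-4.76, SE 0.33, adjusted p = 0.000437) and delta cells (-4.03, SE 0.29, adjusted p = 6.69e-05). Of beta cells 84.9% and 74.4% held a UMI, against 0.82% and 3.38% of non-endocrine cells, and after thinning 31.0% and 33.6% against 0 and 1.74%. The low levels elsewhere were near those of free RNA. Insulin in joint-table alpha cells was 4.32% of its beta level, the same share of Trpm5 would be 12.6 CPM, and the measured 13.0 CPM (8.97 to 18.3) holds that value. In joint-table non-endocrine cells the same share would be 15.5 CPM, above the measured 10.8 CPM (8.01 to 14.1). PP cells of both tables, alpha cells of library 1 and delta cells of the joint table also held the share in their intervals, while delta cells of library 1 lay above it, at 8.32 CPM (2.27 to 21.3) from 4 UMIs in 2 cells against 1.78 CPM.

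Other TRP genes gave smaller contrasts. Trpm3, a steroid- and heat-activated channel, fell in alpha cells (-1.71, SE 0.32, adjusted p = 0.0122), at 0 and 2.37 CPM against 7.99 and 28.3 CPM in beta cells. The beta level thus differed between the tables, for which the cause was not tested. Delta cells had 12.5 and 34.1 CPM of it, against 7.73 and 29.3 CPM in beta cells, and did not pass (adjusted p = 0.609). Trpc1 rose in endocrine cells (2.09, SE 0.19, adjusted p = 5.97e-05), with 96.8, 49.9 and 67.7 CPM in alpha, PP and beta cells of library 1 and 64.8, 42.5 and 67.2 CPM in the joint table, against 11.7 and 13.7 CPM in non-endocrine cells. Trpm4, the close relative of Trpm5, did not pass against non-endocrine cells (0.67, SE 0.27, adjusted p = 0.0722), at 11.6 and 15.4 CPM in alpha and 34.5 and 31.7 CPM in beta cells against 9.11 and 11.2 CPM. It was called higher in endocrine cells by the leading hormone (0.87, SE 0.17, adjusted p = 0.0015). Trpm7, a channel with its own kinase domain, and Trpc4ap were present at 28.1 CPM or more in the delta, alpha, PP, beta and non-endocrine cells of both tables and did not pass in any of the 4 comparisons with a lone hormone. By the leading hormone Trpm7 was called lower in endocrine cells (-0.50, SE 0.15, adjusted p = 0.016). Trpc4ap matches the naming rule but encodes an adaptor that binds TRPC4, not a channel.

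Trpa1, the irritant receptor of sensory neurons, and Trpc5 were too low to be tested, and had higher levels in delta than in beta cells of the joint table. Trpa1 had 18.5 CPM in joint-table delta cells (12.6 to 26.3), against 0.526 CPM in beta cells, in 29 of 380 delta cells. This is 31 UMIs in delta cells, beside 30 in the 7379 beta cells. Library 1 had 1 UMI in 51 delta cells, 2.08 CPM (0.0526 to 11.6), against 0.267 CPM in beta cells. Its 2 intervals for delta cells do not overlap. Trpc5 had 9.56 CPM in joint-table delta cells (5.47 to 15.5) and 2.08 CPM in those of library 1, against 0.648 and 0.4 CPM in beta cells.

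Some TRP genes belonged to non-endocrine cells. Trpv2, abundant in macrophages, had 0 and 0.171 CPM in beta cells, against 44.6 and 29.1 CPM in myeloid cells, and fell in endocrine cells (-1.66, SE 0.17, adjusted p = 9.68e-05 against all non-endocrine cells). Trpm2, an oxidant-sensitive channel, was found in beta cells at 5.01 and 5.28 CPM and in myeloid cells at 22.3 and 21.6 CPM, and did not pass between endocrine and non-endocrine cells with a lone hormone, but was called lower in endocrine cells by the leading hormone (-0.48, SE 0.18, adjusted p = 0.0408). Trpv4, gated by osmotic swelling, had at most 0.035 CPM in the delta, alpha, PP and beta cells, against 10.4 and 8.05 CPM in endothelial cells. Cacna1f, the L-type pore of photoreceptors, had 8.46 CPM in joint-table myeloid cells, from 9 UMIs, against 0.214 CPM in beta cells.

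**Figure D3:**
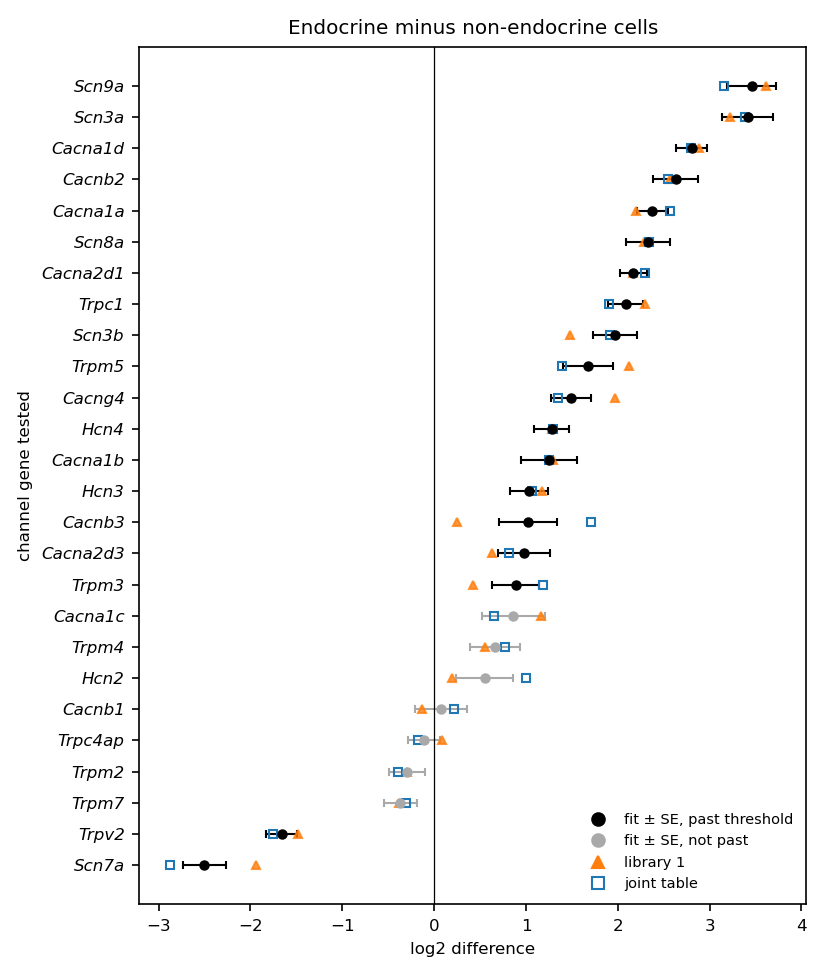
Log2 difference on log2(CPM + 5), endocrine minus non-endocrine cells, for 26 members tested (points with SE, black past the threshold and grey not), with the value of each library as a triangle or a square. Scn9a and Scn3a lie highest and Scn7a lowest, and both libraries have the same direction for the 19 called members drawn, which calling from both favours.

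Delta cells differed from beta cells in 13 of the 33 members tested by the leading hormone. In delta cells 9 rose and 4 fell, Trpm5, Cacna1d and Trpm2 among those that fell, where 8.34% of all 12422 genes were higher and 7.92% lower, 16.3% in either direction. By the same rule alpha cells differed in 10 and PP cells in 12 of 33 members, against 14.6% and 15.7% of all genes. All 13 called in delta cells had the same direction in both libraries, which calling from a fit of both favours. The median over the 33 was 0.04, against 0.00 over all genes. Of the 9 that rose, 3 (Cacna1h, Cacna1i and Cacng2) reached the filter only with the delta sums. Without the filter 10 of 47 members rose and 6 fell, a description, because the share of all genes in that fit is not given here. With a lone hormone and joint-table delta cells only, 3 of 28 members rose and 2 fell, against 2.95% higher and 3.8% lower of all genes, 6.74% in either direction. Scn3b, Scn3a, Cacna2d3 and Trpm5 were called under both rules, which draw on the same cells and are not independent. With a lone hormone Cacna2d3 reached the filter only with the joint-table delta sum and the PP sum of library 1, so that difference is a description. Cacna2d1 was called lower with a lone hormone only (-0.95, adjusted p = 0.0452), and had -0.22 with adjusted p = 0.387 by the leading hormone. Trpm2 rests on few UMIs (-0.78, SE 0.23, adjusted p = 0.0481, within 0.0398 to 0.312 over its alternatives), at 0 and 1.79 CPM in delta cells against 4.8 and 5.06 CPM in beta cells. Insulin of leading-rule delta cells was 0.739% and 4.35% of the level in lone-hormone beta cells, close to the free-RNA share of non-endocrine cells in the joint table. Pancreatic polypeptide in leading-rule delta cells was higher, at 33028 and 35218 CPM. Lone-hormone delta cells had 717 and 1144.5 CPM of it and non-endocrine cells 111 and 463 CPM. The part of this hormone mix in the delta differences was not tested.

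Alpha cells differed from beta cells in 8 of 28 members. Cacng4, Scn3a and Scn3b rose, and Trpm5, Trpm3, Hcn4 and Cacna2d1 were among the 5 that fell. Of all genes 5.13% were higher and 5.83% lower, 11.0% in either direction. Cacna2d1 fell by 0.77 (SE 0.18, adjusted p = 0.0278), and this call was lost when hormones were counted in the total (adjusted p = 0.127, within 0.000175 to 0.127 over its alternatives). The same total also ended the call of Scn3b (adjusted p = 0.218, within 1.18e-07 to 0.218). Trpm4 was also called lower in alpha cells by the leading hormone (-0.78, SE 0.21, adjusted p = 0.0381).

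PP cells differed in 6 of 28 members, from 13 cells in library 1 and 186 in the joint table: Cacng4, Scn3b, Cacna2d3 and Scn3a rose, and Trpm5 and Cacna1c fell. Of all genes 5.61% were higher and 4.71% lower, 10.3% in either direction. Cacna2d3 had 15.0 and 3.21 CPM in PP cells against 0 and 0.0428 CPM in beta cells (1.70, SE 0.34, adjusted p = 0.0205), and lost its call with hormones in the total (adjusted p = 0.152, within 5.66e-07 to 0.152 over its alternatives). Its 15.0 CPM in library 1 is the level of 3 UMIs in 13 cells, so this rise rests on few UMIs. With a lone hormone Cacna2d3 reached the filter only with this PP sum and the joint-table delta sum, so the PP difference is a description. Cacna1c had 0 and 12.0 CPM in PP cells, against 30.6 and 34.3 CPM in beta cells (-1.67, SE 0.42, adjusted p = 0.0436, within 0.0218 to 0.0921 over its alternatives). By the leading hormone Cacna2d1 (-0.69, adjusted p = 0.015), Trpm4 (-0.77, adjusted p = 0.0379) and Hcn4 (-0.84, adjusted p = 0.0254) were also called lower in PP cells. The median of tested genes lay lower in PP cells, at 4.32 and 4.39 on the log2 scale against 4.71 and 4.71 in beta cells, and the differences are relative to that median. Without this centring, 3 members rose and 9 fell in PP cells, and among all genes 352 rose and 1434 fell in place of 695 and 583.

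**Figure D4:**
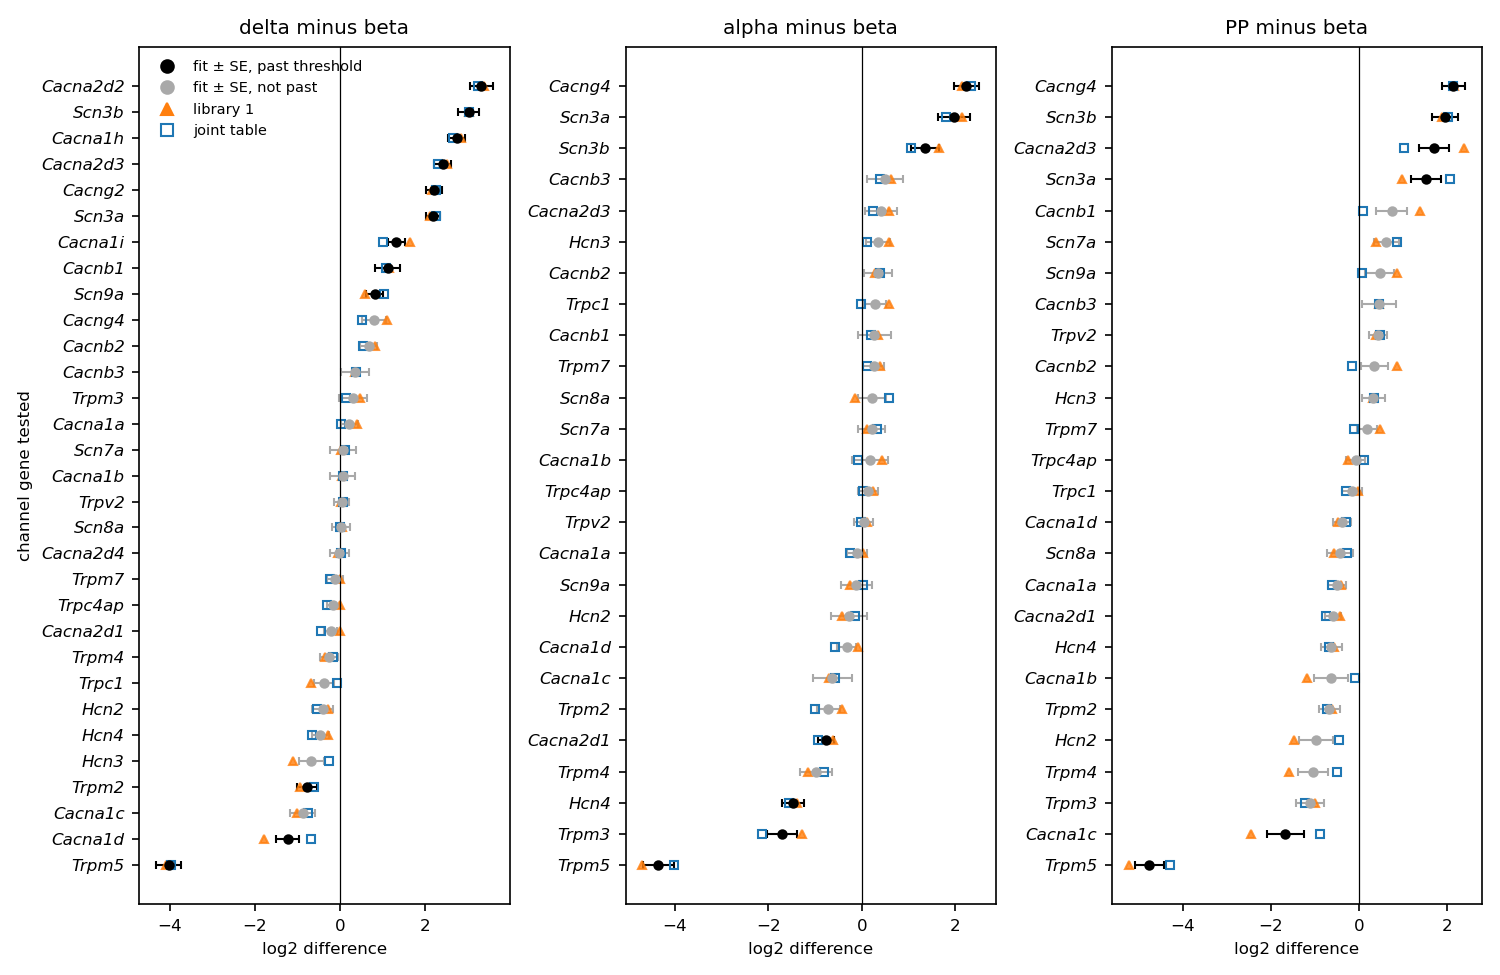
Log2 differences on log2(CPM + 5) from beta cells for delta (leading hormone), alpha and PP cells, as points with SE (black past the threshold and grey not) and as 1 value per library. Trpm5 lies far to the left in all 3 panels, and Cacna2d2, Scn3b and Cacna1h lie far to the right in delta cells.

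The other genes of the pathway, a list of 44 regulators and calcium handling genes, had a median near that of all genes in endocrine cells. Of the 35 tested, 10 rose and 7 fell in endocrine cells, with a median of 0.10, against 0.14 over all genes, of which 28.6% were higher and 23.8% lower. The share of the list that rose is thus that of all genes. Camk2b, a calmodulin-dependent kinase subunit (3.71), Fgf12, an intracellular partner of sodium channels (3.34), and Nalcn, the sodium leak channel (2.93), rose most. Rrad, an inhibitor of calcium channels (-2.25), Orai1, the store-operated calcium pore (-2.18), and Itpr2, an inositol trisphosphate receptor (-1.70), fell most. Between alpha and beta cells 6 of 35 rose and 3 fell, against 5.13% and 5.83% of all genes: Itpr1 rose (3.15), and Atp2a2, the calcium pump of the endoplasmic reticulum (-2.63), and Itpr2 (-1.83) fell. In delta cells 6 of 34 rose and 3 fell, against 8.34% and 7.92% of all genes, led by Fgf14 (2.80), Atp2a2 (-2.26) and Itpr1 (2.23). In PP cells 4 of 35 rose and 2 fell, against 5.61% and 4.71% of all genes, led by Atp2a2 (-2.45), Atp2a3 (-2.31) and Fgf14 (1.67). For each of these named genes limma gave an adjusted p of at most 0.0207.

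Of the remaining matching rows, 19 were below the detection minimum, among them Cacna1s, Cacng1, Cacng3, Cacng5, Cacng6, Scn1a, Scn4a, Scn4b, Scn10a, Scn11a, Trpc5os, Trpc6, Trpm1, Trpm8, Trpv1, Trpv3, Trpv5 and Trpv6. The highest of them were in 16 joint-table cells (Trpc6), and 12 cells (Cacng3), and the members closest above the minimum were in 22 (Cacna1f) and 28 cells (Cacng8). Cacna1e, Cacng8, Trpc4, Trpc7 and Trpm6 were each at most 5.81 CPM in the delta, alpha, PP, beta and non-endocrine cells of both tables.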

How the data were processed

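The authors deposited raw UMI counts (unit: counts) for replicate 1. Per the submitters' processing notes they come from Cell Ranger 3.2.0 on mm10, with cutadapt 2.5, FastQC 0.11.8 and Seurat, its version not given in the sources used here. For replicates 2 and 3 the authors deposited 1 joint table of natural log values (unit: ln), each ln(1 + 10000 × UMIs / UMIs of the cell). The notes name Cell Ranger 5.0.0 and Seurat 4.0.0 for it, beside the same trimming and quality tools. UMI counts were recovered from it: all of 35558086 nonzero values (100%) came out whole within 0.001. Of its 16050 columns, 3008 repeated others and were dropped, which left 13042 in 3 blocks by barcode suffix (5894, 3008 and 4140 cells). The suffixes match no sample label, and why 2 samples gave 3 blocks was not settled.

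Cells needed at least 500 genes, 1000 UMIs and at most 20% mitochondrial UMIs. Lineage candidates had at least 3 markers of 1 list and 10 of its UMIs per 10000. A hormone counted above 5 times the candidates' median plus 5 UMIs (442.5 insulin, 25 glucagon, 5 somatostatin and 10 pancreatic polypeptide UMIs in library 1, and 1475, 20, 5 and 10 in the joint table). Cells with several hormones, 199 and 2264, entered only under the leading-hormone rule, and doublets were not otherwise removed. UMIs were summed per class (at least 10 cells) and library, scaled to CPM, and genes with 5 CPM in at least 2 of these sums were tested with limma 3.58.1 (R 4.3.3) on log2(CPM + 5), median-centred, with the library as a block and a variance trend, two-sided. Hormones and lineage markers were left out of the tests. The planned delta comparison used a lone hormone; the leading-hormone rule and its tests were chosen after seeing the data. P-values measure how far class differences disagree between the 2 libraries, pooled over classes. This left 3 residual degrees of freedom with a lone hormone and 4 by the leading hormone. The variance of each gene was also moderated by those of other genes. No spread between mice within a library is measured. In the lone-hormone delta comparison the delta side is 1 sum from the joint table, so its p-values hold no spread of delta cells. Intervals (exact Poisson for levels, 95%) cover counting error only.

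Members past the threshold in any of the 4 comparisons were given levels per library, up to the 25 with the largest differences, and companion genes were the 3 largest called. Cacna1e, Cacna1f, Cacna1g, Cacna2d4, Cacnb4, Cacng7, Scn2b, Hcn2, Trpa1, Trpc5, Trpm2, Trpm4 and Trpv4 are outside that rule and were given values after these were seen. Counts cover all members, but values of some are not reported here. Members and lists were chosen with earlier results of these data known. Gene positions are from GENCODE vM21 (mm10). The pipeline was tested on simulated data. edgeR 4.0.16 and DESeq2 1.42.0 on the summed counts, Scrublet (scanpy 1.11.5) and other settings were alternatives.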

Additional observations from a re-analysis of the deposited data

How the results depend on the processing

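The counts of members called kept within 1.5 times under the alternatives run, except in these cases. Delta minus beta cells with a lone hormone had 5 calls, against 3 at an added 1 CPM, 10 without the filter on low values and 13 by the leading hormone. PP minus beta cells had 6 calls, against 12 without centring and 12 by the leading hormone. Cacna2d3 between endocrine and non-endocrine cells had 0.98 and turned to -0.23 with beta cells alone as the endocrine side (adjusted p = 0.615, within 0.00037 to 0.615 over its alternatives), and was also not called by edgeR or DESeq2. Scn3b and Cacng4 also lost that call with beta cells alone (0.32 and 0.35, adjusted p = 0.413 and 0.317). No other called difference changed sign. Of joint-table members, 37 of 48 were found in a larger share of endocrine than of non-endocrine cells, and 31 of 48 after thinning to 1500 non-hormone UMIs. The pooled endocrine cells were mostly beta cells (6503). Before thinning these had a median of 6660 non-hormone UMIs, against 2474 in non-endocrine cells. No such count over all genes is given, so both counts are a description. Leaving out a library leaves values without a test, and no called member changed direction in either, which calling from a fit of both favours. The classes compared come from the same libraries, and the library is a block in every fit, which pairs them by library. Lone-hormone delta cells, summed in the joint table only, have no counterpart in library 1. Low members are limited by depth: 3 UMIs were 1.95 CPM in library 1 non-endocrine cells and 15.0 CPM in its 13 PP cells.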
